A study of Mus musculus with 2 samples.

Results

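The small leucine-rich proteoglycans are secreted matrix proteins, and 10 of their genes were examined here: Dcn, Bgn, Aspn, Lum, Fmod, Prelp, Kera, Omd, Ogn and Podn. They were chosen by family membership, through the gene symbols that the platform annotation gives to the probe sets (groups of probes for 1 transcript) of the array. Each had exactly 1 probe set, so the rule of taking the highest had no choice to make, and the 10 stand among 19938 genes with a probe set of their own. The tissue was tibialis anterior muscle of mice on a 129Sv/C57BL6 background, male and female, 2 to 4 months old. Both groups had received 50 µl of 10 µM cardiotoxin, a venom peptide that destroys muscle fibres, and the muscle was taken 7 days later, while it was regenerating. The wild type group (Mef2a +/+) and the Mef2a knockout group (Mef2a -/-) each consisted of RNA from 5 mice, pooled and read on 1 array. MEF2A is a DNA-binding factor that turns on muscle genes, and the comparison asks what differs in regenerating muscle without it. With 1 array per genotype there are no replicates, no test is possible, and the mice behind each pool cannot be seen apart.

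All values are log2 units after RMA, which corrects background, gives both arrays the same distribution and summarises the probes of a set. A difference is always the labelled knockout value less the wild type value, and a pair of values gives wild type first. A gene was called measurable if at least 1 of its values was 4.40, the median of the whole table, or more. This left 11787 genes. Mef2a itself read 8.92 in wild type and 9.06 in knockout-labelled RNA. No label states the deleted part of the gene, so this probe set does not check the genotypes, and every direction below rests on the labels. The fibre genes Acta1 (12.56 and 12.52) and Ckm (12.07 and 11.89), checked for the tissue label, were high in both pools.

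Each protein of the family has a curved core of leucine-rich repeats that binds collagen, and the family is known for setting the width and spacing of collagen fibrils. The core of class I members such as decorin and biglycan carries chondroitin or dermatan sulfate chains, while several class II members carry keratan sulfate. In muscle these proteins are made largely by fibroblasts and related connective tissue cells, and some of them also bind growth factors of the transforming growth factor beta family.

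The members examined were, as a group, slightly higher in the labelled knockout pool, with a wide spread among them. Of the 9 measurable members, 8 were higher and 1 was lower as deposited, where 53.3% of all measurable genes were higher. When the data were rescaled by centring or a loess trend, 7 members were higher and 2 lower. The median difference of all measurable genes was then -0.063 with centring and 0.0013 with the loess trend removed. As deposited, the median difference of the members was 0.25, against 0.03 for all measurable genes, and 22.3% of those genes lay at or above that 0.25. This median was smaller than the robust SD of the difference over measurable genes, 0.28. With the relatives outside the 10 included, 10 of 14 measurable genes were higher and 4 lower, with a median of 0.21. Among the members, only Fmod passed a limit of 1.5-fold (0.585 on the log2 scale), the direction being higher, and none passed it downward. Of all measurable genes, 6.45% passed the limit upward and 1.9% downward, so 1 of 9 is read as near the background. At least 25% higher were 3 members (Fmod, Bgn and Kera), where 16.7% of measurable genes were. Kera, at 1.2503-fold, only just reached this limit. It was under it when rescaled, at 0.23 with centring and 0.30 with the loess trend removed. No member reached 2-fold, which 1.7% of measurable genes did upward and 0.187% downward.

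**Figure D1:**
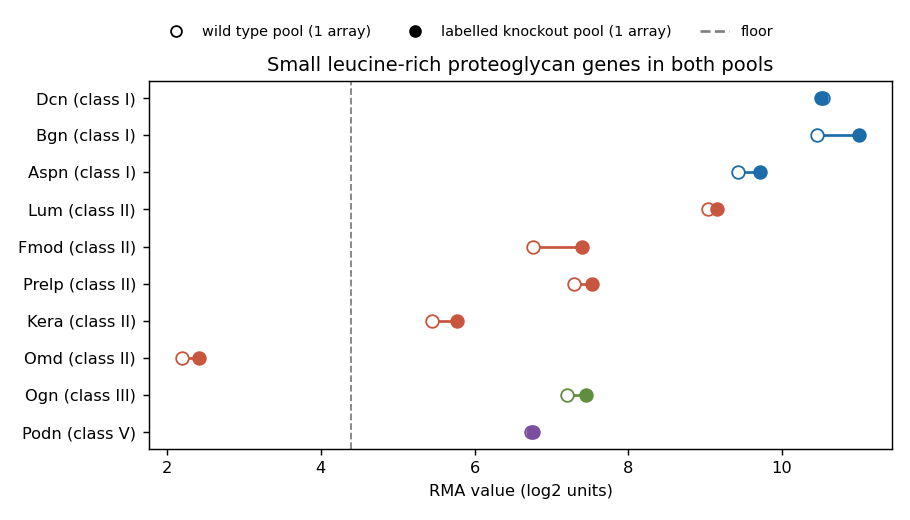
RMA values (log2 units, horizontal axis) of the 10 family genes in the wild type pool (open circles) and the labelled knockout pool (filled circles), 1 array each, coloured by class, with the floor of 4.40 as a dashed line. Fmod and Bgn show the widest gaps, the circles of Dcn and Podn nearly coincide, and both circles of Omd lie below the floor.

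Class I differed within itself. Decorin, the product of Dcn, coats collagen fibrils and holds transforming growth factor beta in the matrix. Dcn read 10.53 in wild type and 10.50 in knockout-labelled RNA, a difference of -0.03 and the only negative one among the members as deposited. Biglycan, from Bgn, is its closest relative, binds sarcoglycans at the fibre membrane and, when released, is a signal to innate immune receptors. Bgn read 10.46 in wild type and 11.00 in knockout-labelled RNA. That is a difference of 0.54 (1.45-fold), higher than that of 92.5% of measurable genes. Asporin, from Aspn, has a run of aspartate residues where its relatives carry sugar chains. Aspn read 9.42 and 9.71 in the same order, a difference of 0.29 (1.23-fold) at percentile 81.2. The median of the 3 class I genes was 0.29.

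The distance between Dcn and Bgn can be set beside the disagreement between probe sets of the same gene. Their differences lay 0.57 apart. For 648 other genes with at least 2 measurable probe sets, the differences of the 2 brightest sets lay 0.09 apart at the median and 0.34 apart at the 90th percentile, and 4.17% of these genes showed over 0.5. This gauge covers disagreement between probe sets on the same pair of arrays, and neither mice nor arrays. The gap between Dcn and Bgn was wider than that seen in most genes measured more than once. How far apart the differences of 2 separate genes commonly lie is not covered by this gauge.

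All 4 measurable class II genes were higher in the labelled knockout pool, by amounts from 0.12 to 0.64. Fibromodulin, from Fmod, is abundant in tendon and cartilage and binds both collagen and the cross-linking enzyme lysyl oxidase. Fmod read 6.76 in wild type and 7.40 in knockout-labelled RNA. Its difference of 0.64 (1.56-fold) exceeded that of 94.8% of measurable genes, and its size exceeded that of 93.8% of the 500 genes of nearest mean. It was short of 1.5-fold in both rescaled forms of the data, at 0.578 with a loess trend on mean expression removed and at 0.55 with the arrays centred on their medians. Lumican, from Lum, regulates fibril assembly in cornea, skin and tendon. Lum read 9.03 and 9.15 in the wild type and labelled knockout pools, a difference of 0.12 at percentile 63.1.

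Prelp encodes a protein that links collagen to the basement membrane proteoglycan perlecan. It read 7.29 in wild type and 7.52 in knockout-labelled RNA, a difference of 0.23 (1.17-fold, percentile 75.1). Keratocan, from Kera, is best known from the cornea, where it keeps fibrils evenly spaced, and is also found in tendon. Kera read 5.45 and 5.77 in the same order, a difference of 0.32 (percentile 83.3). Osteomodulin, from Omd, is a product of bone-forming cells. Omd read 2.20 and 2.41, below the floor in both pools, so its difference of 0.21 is not interpretable. The median of the 4 measurable class II genes was 0.27, and 0.23 with Omd included.

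Classes III and V were each represented by 1 gene. Ogn, which encodes osteoglycin (also called mimecan), read 7.20 in wild type and 7.45 in knockout-labelled RNA. Its difference of 0.25 (1.19-fold) stood at percentile 77.7. Podocan, from Podn, was first described in kidney podocytes and is also made by smooth muscle. Podn read 6.73 and 6.77 in the same order. Its difference of 0.03 turned to -0.057 with centred arrays and to -0.033 with the loess trend removed, so it has no settled direction. The median of all measurable genes was -0.063 and 0.0013 in the same order.

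Class did not sort the members by their differences. The ranges of class I (-0.03 to 0.54) and class II (0.12 to 0.64) overlapped over most of their length, and their medians were 0.29 and 0.27. Each held 1 gene with a difference over 0.5 (Bgn, Fmod) and 1 near the middle of all measurable genes (Dcn at percentile 40.4, Lum at percentile 63.1). Between these extremes, Kera, Aspn, Ogn and Prelp, from 3 classes, lay between 0.23 and 0.32. Of the 36 pairs of measurable members, 10 lay further apart than the 0.34 given above for probe sets of the same gene. All of these but the pair of Dcn and Kera involved Fmod or Bgn.

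**Figure D2:**
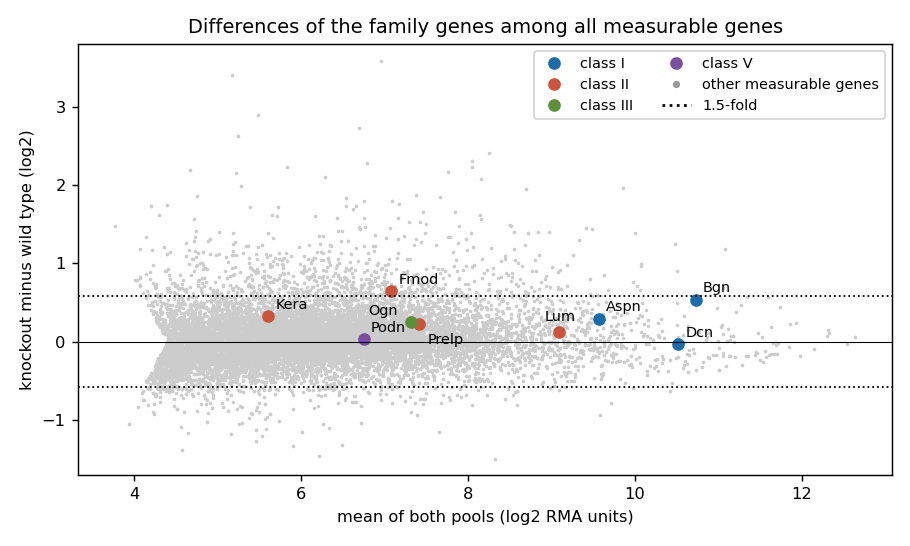
Difference between the pools (labelled knockout minus wild type, log2, vertical axis) against the mean of both pools (log2 RMA units, horizontal axis) for 11787 measurable genes (grey), with the 9 measurable family genes coloured by class and the 1.5-fold limits dotted. Fmod lies above the upper limit, which 6.45% of measurable genes reach, and Bgn just below it. The other 7 lie lower, and all 9 are inside the grey cloud.

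Position on the chromosome was a further way to group the genes. In the RefSeq gene order of GRCm38.p6, 8 of the 10 members lie in 3 runs of adjacent protein-coding genes, each run also holding a relative outside the 10. On chromosome 10 the order is Dcn, Lum, Kera, Epyc, with differences of -0.03, 0.12 and 0.32 for the first 3. Epyc, the gene of the cartilage protein epiphycan, read 1.88 and 1.71 in the wild type and labelled knockout pools, below the floor. On chromosome 13 the order is Ecm2, Aspn, Omd, Ogn. Its members Aspn (0.29) and Ogn (0.25) were close to each other, while Ecm2, a relative with a similar repeat region, stood at -0.13 (6.01 and 5.88). On chromosome 1 the order is Optc, Prelp, Fmod. Prelp (0.23) and Fmod (0.64) lay 0.41 apart, and Optc, the gene of the eye protein opticin, read 3.18 and 2.73, below the floor. The measurable genes of a run thus spread over 0.35, 0.43 and 0.41 on chromosomes 10, 13 and 1. Bgn on the X chromosome and Podn on chromosome 4 have no relative among their 3 nearest protein-coding genes on either side.

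Of the 8 relatives outside the 10, 7 were measured and 5 were measurable, 2 higher and 3 lower, or 3 and 2 with the loess trend removed. Podnl1, which encodes a podocan-like protein, read 4.74 in wild type and 5.35 in knockout-labelled RNA. Its difference of 0.62 (1.53-fold) was larger than that of its class V relative Podn and was the only one of the 5 past 1.5-fold, upward, where the share of all measurable genes is the 6.45% given above. With centred arrays it was at 0.53, under that limit. Chad, the gene of the cartilage protein chondroadherin, read 4.52 and 4.71 (0.19), and the related Chadl 4.57 and 4.51 (-0.05), all near the floor. Nyx, which encodes the retinal protein nyctalopin, has 2 probe sets that disagree in level. One read 7.09 and 6.94 (-0.15) in the wild type and labelled knockout pools and the other 2.81 and 2.51, so its level is uncertain. Tsku has no value here.

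Since MEF2A binds DNA, the stretches from 250 bases before to 50 bases after the start sites of the members were searched for short letter patterns. The RefSeq promoter table (GRCm38.p6) held 9 such stretches for 8 members, Podn having 2, with Dcn and Lum not among them. Those of Fmod and Bgn are shown because these genes had the largest differences, and those of Aspn and Ogn because these genes share a run and lay 0.04 apart. Capitals mark every match to 5 patterns searched on both strands. For MEF2 the pattern was CTA and TAG with any 4 bases between them, a form of the frame of the MEF2 site. Sites with other end letters were not searched. The other patterns were TATAAA (the TATA box), CANNTG (the E-box, N being any base), TGANTCA (the AP-1 site) and GGGCGG (the GC box). Matches may overlap, as in the capitals nearest the end of the Bgn stretch and in the first capitals of Ogn. Each runs 5′ to 3′ on the strand of its gene, which is the plus strand for all 4.
Fmod, chr1:134037004-134037303: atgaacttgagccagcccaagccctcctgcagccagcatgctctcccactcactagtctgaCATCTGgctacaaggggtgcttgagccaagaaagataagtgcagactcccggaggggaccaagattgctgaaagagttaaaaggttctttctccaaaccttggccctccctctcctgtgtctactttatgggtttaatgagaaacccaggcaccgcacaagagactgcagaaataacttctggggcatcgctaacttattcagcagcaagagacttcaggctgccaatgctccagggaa
Bgn, chrX:73483351-73483650: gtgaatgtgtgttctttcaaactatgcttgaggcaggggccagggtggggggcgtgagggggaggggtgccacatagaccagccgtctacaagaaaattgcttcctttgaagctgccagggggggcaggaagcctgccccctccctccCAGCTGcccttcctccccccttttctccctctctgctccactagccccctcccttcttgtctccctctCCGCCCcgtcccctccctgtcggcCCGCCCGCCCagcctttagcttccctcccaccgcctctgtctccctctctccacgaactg
Aspn, chr13:49544193-49544492: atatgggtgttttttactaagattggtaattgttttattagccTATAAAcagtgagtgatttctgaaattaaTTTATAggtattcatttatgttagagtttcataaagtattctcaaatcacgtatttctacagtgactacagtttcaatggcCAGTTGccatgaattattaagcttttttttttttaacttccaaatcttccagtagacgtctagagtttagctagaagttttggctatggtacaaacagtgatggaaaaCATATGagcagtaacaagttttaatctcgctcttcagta
Ogn, chr13:49607765-49608064: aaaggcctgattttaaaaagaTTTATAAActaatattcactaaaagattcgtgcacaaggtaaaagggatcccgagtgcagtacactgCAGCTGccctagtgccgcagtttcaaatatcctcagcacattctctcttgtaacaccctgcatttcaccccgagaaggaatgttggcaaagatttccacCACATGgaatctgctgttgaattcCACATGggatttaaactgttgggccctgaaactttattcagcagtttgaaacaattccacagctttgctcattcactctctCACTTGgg

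The CTA and TAG form of the MEF2 frame was found in 0 of the 9 member stretches and in 3.69% of the 32851 stretches of 300 bases in the table. The AP-1 pattern was likewise found in 0 of 9, against 7.81%. These counts say only that the letters are not in these windows. E-box letters were found in 7 of 9 (72.3% of all), TATA letters in 2 of 9, those of Aspn and Ogn (13.6%), and GC box letters in 2 of 9, those of Bgn and the upstream one of Podn (35.7%). The TATA letters began at -207 and -178 in Aspn and at -229 and -227 in Ogn, counted from the start site with no position 0. Fmod held a single match, the E-box letters CATCTG at -189. In Bgn, E-box letters began at -102 and GC box letters at -34, -10 and -6. The stretches differed in base composition, from 31.0% G or C in Aspn through 42.3% in Ogn and 51.0% in Fmod to 63.7% in Bgn and 77.0% in the upstream one of Podn, where the median of all was 52.7%. Fmod and Bgn, with the largest differences, had no pattern in common other than the E-box letters, which most stretches hold.

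The collagens that the family binds differed by amounts like those of the family. Here and for the lists below, the shares of all measurable genes as deposited are 53.3% higher, 6.45% past 1.5-fold upward and 1.9% downward. Of 14 measurable fibrillar and fibril-associated collagen genes, 12 were higher and 2 lower in the labelled knockout pool, with a median difference of 0.23. Past 1.5-fold were 2, upward: Col11a1, a chain found in thin fibrils of cartilage and young tissue, at 0.83 (6.21 in wild type and 7.04 in knockout-labelled RNA), and Col12a1, a fibril-associated collagen, at 0.71 (8.25 and 8.96). Col6a2, of the microfibrils around muscle fibres that biglycan binds, was at 0.58 (1.49-fold). Among genes named after their values were seen, Col1a1 (0.23), Col1a2 (0.22) and Col3a1 (0.12), the main fibril chains, differed by less.

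Genes that process and cross-link collagen were listed together with the matrix protein genes Fn1 (0.47), Dpt (-0.08) and Tnxb. The list had a median difference of 0.42 over 18 measurable genes, 14 higher and 4 lower. Of these, 4 were past 1.5-fold and none in the lower direction, and 1 of the 4, the lysyl hydroxylase Plod2 (0.64), was under the limit with centred arrays and, at 0.579, with the loess trend removed. The lysyl oxidase relative Loxl3 read 6.59 in wild type and 7.72 in knockout-labelled RNA (2.19-fold), the lysyl hydroxylase Plod3 6.49 and 7.27 (1.71-fold), and the prolyl hydroxylase P4ha3 5.59 and 6.32 (1.66-fold). Named after its value was seen, Lox, the enzyme that fibromodulin binds, was at 0.55 (7.53 and 8.08), and Tnxb, the tenascin X gene, was at -0.47.

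Enzymes that build the sugar chains went mostly the same way. Of 19 measurable genes for chondroitin and dermatan sulfate, 15 were higher and 4 lower (13 and 6 in both rescaled forms), with a median of 0.18, or 0.094 with centred arrays. Xylt1, which adds the first sugar to the core protein, read 5.72 in wild type and 6.53 in knockout-labelled RNA (1.76-fold). Dse, the epimerase that turns chondroitin into dermatan sulfate, read 6.74 and 7.38 (1.56-fold), and Csgalnact1, which starts the chondroitin chain, was at 0.55. Xylt1 and Dse were the only 2 of the 19 past 1.5-fold, where 6.45% of all measurable genes passed it upward. With the loess trend removed Dse was at 0.57, under that limit, as it also was with centred arrays. Of 5 measurable keratan sulfate genes, 4 were higher and 1 lower. Their median of 0.29 became 0.13 without a floor or when it was the 25th percentile, and 0.62 when it was the 75th. B4galt1, a galactosyltransferase used by many glycans, was at 0.62, and at 0.581 and so short of the limit without the loess trend, as also with centred arrays, B3gnt2 at 0.57 and Chst2 at 0.29.

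Proteoglycans outside the family went both ways. Of 7 measurable matrix proteoglycan genes, 3 were higher and 4 lower, with a median of -0.0036 that became 0.61 when the floor was the 75th percentile. Srgn, the serglycin of blood cell granules, was 2.34-fold higher (7.00 in wild type and 8.23 in knockout-labelled RNA), and Vcan, the versican of provisional matrix, was at 0.61, or 0.55 with the loess trend removed. Ncan was at -0.52, to 3.90 below the floor, and with centred arrays it was past 1.5-fold downward. Of 11 measurable cell surface proteoglycan genes, 7 were higher and 4 lower (median 0.20), or 6 and 5 with centred arrays. Sdc1, the syndecan 1 gene, was the only one past 1.5-fold, at 0.97. Sdc2 was at 0.46 and Cspg4 at 0.31.

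Among growth factors and receptors that the family binds, 11 of 14 measurable genes were higher and 3 lower (median 0.21). The counts were 9 and 5 with centred arrays and 10 and 4 with the loess trend removed. As deposited, 4 were past 1.5-fold upward and 2 downward, where the shares of all measurable genes are 6.45% and 1.9%. With centred arrays or the loess trend removed, 3 were past it upward, Tgfbr1 no longer being among them. Lrp1, a receptor that takes up decorin, read 9.07 in wild type and 9.87 in knockout-labelled RNA (1.74-fold). Bmp4, a bone morphogenetic protein, read 5.26 and 4.47 (-0.79), and Mstn, the gene of myostatin, which decorin can bind, read 5.48 and 4.74 (-0.74). Named after their values were seen, Tgfb1, the ligand that decorin holds in the matrix, was at 0.70 (6.94 and 7.64), Tgfb2 at 0.35 and Tgfb3 at 0.13. Its receptor Tgfbr1 was at 0.60 and Tgfbr2 at 0.42, and Ccn2, a target gene of that pathway, at 0.73. Dcn itself, which acts on these ligands, was at -0.03.

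Receptors and signals engaged by soluble biglycan and decorin had a higher median, 0.72 over 9 measurable genes, 8 higher and 1 lower, with 6 past 1.5-fold upward, or 5 with centred arrays, where P2rx7, another ATP-gated channel, was under the limit. Cd14, a co-receptor, read 4.90 in wild type and 6.51 in knockout-labelled RNA (3.05-fold), Cd44, the hyaluronan receptor, 6.42 and 7.40 (1.98-fold) and P2rx4, of the same channel family, 7.22 and 8.15 (1.90-fold). Named after their values were seen, Tlr2 was at 0.76 and Tlr4 at 0.18, both receptors of biglycan. Of 10 measurable genes for proteases that can cut the family, 7 were higher and 3 lower (6 and 4 in both rescaled forms), 4 of them past 1.5-fold upward. Their median of 0.41 depended on the floor, being 0.18 when it was the 25th percentile and 0.049 without one. Mmp9 read 5.16 and 8.75 (12.0-fold), Ctsk, the cathepsin K gene, 7.72 and 9.67 (3.87-fold), and Mmp12 7.77 and 9.25 (2.79-fold). Named after its value was seen, Mmp2, a fibroblast gelatinase that cuts decorin, was at -0.04 (10.03 and 9.98).

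Markers of the cells that make or could accompany the family were read in the same RNA. In a pooled tissue, fewer cells of a type and less RNA per cell cannot be told apart. Of 11 measurable fibroblast and progenitor markers, 6 were higher and 5 lower, none past 1.5-fold. With the loess trend removed 5 were higher and 6 lower, and with centred arrays 3 and 8. The median was 0.03, or -0.012 with the loess trend removed and -0.054 with centred arrays. With centred arrays the median of all measurable genes was -0.063. Pdgfra, the defining marker, named after its value was seen, read 8.20 in wild type and 8.24 in knockout-labelled RNA. Mfap5 was at 0.26, Cd34 at -0.24 and Osr1 at 0.19. The summed linear signal of the fibroblast list was 2527 in wild type and 2578 in knockout-labelled RNA. Dcn, Podn and Lum thus lay within the range of these markers (-0.24 to 0.26), as did Prelp and Ogn, while Aspn, Kera, Bgn and Fmod lay above it.

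Macrophage markers differed far more. All 12 were higher in the labelled knockout pool and past 1.5-fold, with a median of 1.03 and a summed linear signal of 3696 in wild type and 8053 in knockout-labelled RNA. Msr1, a scavenger receptor, was at 2.11, Itgam, the integrin CD11b, at 1.80 and Cd14 at 1.61. Cd14 is also in the innate receptor list above. The lowest of the 12, 0.80, was above the highest member, Fmod at 0.64. The part of macrophage RNA in the differences of the family, of collagen processing, of the growth factor list, of the proteases and of the innate receptors was not tested.

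Tendon markers had a median of 0.21 over 9 measurable genes, 5 higher and 4 lower. Tnc, the tenascin C gene, was at 1.40, Chodl, which muscle also expresses, at -0.91 and Scx, the defining tendon factor, at -0.48 (6.78 in wild type and 6.30 in knockout-labelled RNA). Named after its value was seen, Tnmd, another defining tendon gene, was at 0.32 (6.70 and 7.03), so the defining tendon markers went in opposite directions while Fmod and Kera, both tendon proteins, were higher. The summed linear signal of the tendon list was 2307 and 2862, and 2076 and 2251 without Tnc. Only 3 of 10 measured cartilage and bone markers were measurable, Alpl at -0.50, Sox9 at 0.13 and Col2a1 at 0.10, and the bone factor Sp7 (3.76 and 4.34, named after its value was seen) was below the floor, as Omd was.

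All 12 muscle fibre markers were lower in the labelled knockout pool as deposited, and 11 of 12 with the loess trend removed, when Acta1 turned from -0.036 to 0.024. Their median was -0.17 and none was past 1.5-fold. Ryr1 (-0.31), Actn3 (-0.29) and Mylpf (-0.19) stood lowest. Satellite cell and myoblast markers had a median of -0.06 over 9 genes, 4 higher and 5 lower, or 3 and 6 with centred arrays. Among them, Vcam1 was at 0.27, Mymk at 0.24 and Pax7 at -0.23. Endothelial markers stood at a median of -0.06 (Vwf at 0.84, Kdr at -0.29, Emcn at 0.23). Mural markers stood at 0.05, or -0.041 with centred arrays. Pdgfrb was at 0.65, under 1.5-fold with centred arrays, Abcc9 at -0.58 and Cspg4 at 0.31. Abcc9 was past 1.5-fold downward in both rescaled forms, at -0.63 with the loess trend removed. Schwann cell markers stood at 0.09, or -0.0031 with centred arrays (Egr2 at 0.91, Mbp at 0.46, Ngfr at -0.27). Adipocyte markers stood at -0.04 (Pck1 at -0.57, Cidec at -0.39, Retn at 0.14). Pck1 was likewise past 1.5-fold downward in both rescaled forms, at -0.63 with the loess trend removed. The median of all measurable genes was -0.063 with centred arrays.

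**Figure D3:**
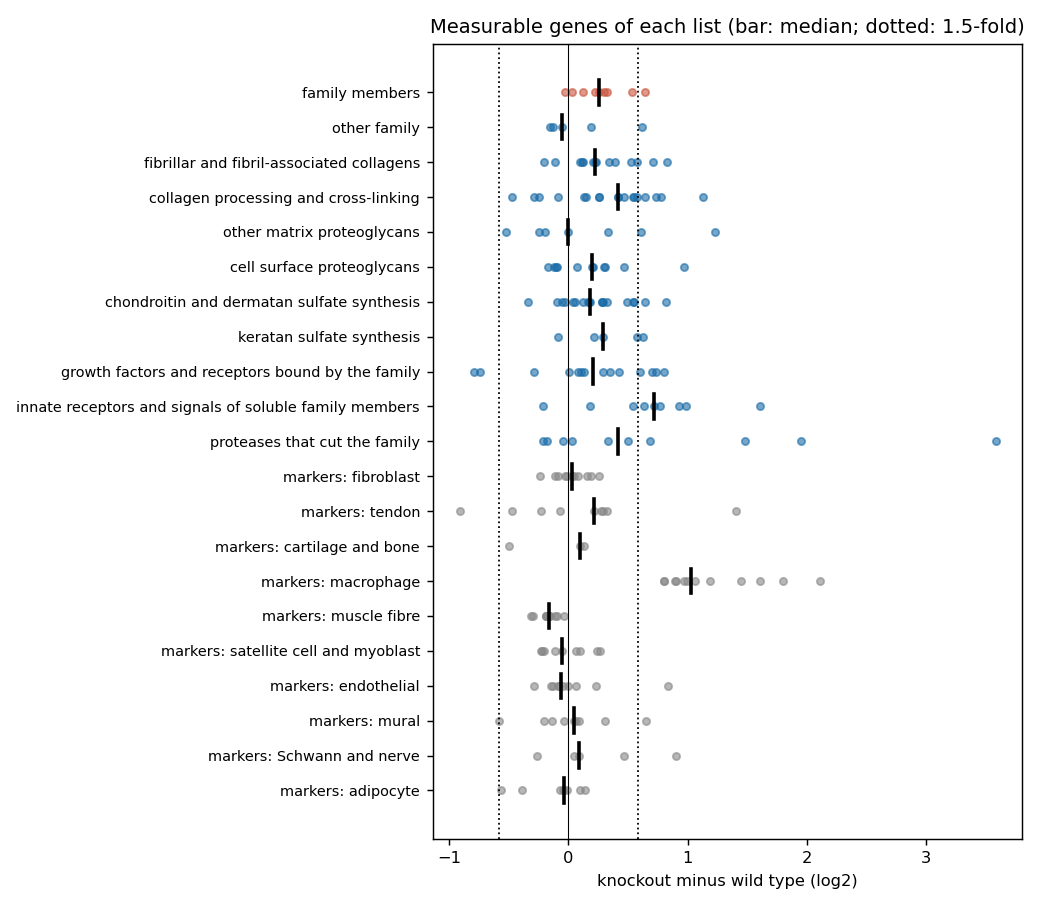
Differences between the pools (labelled knockout minus wild type, log2, horizontal axis) of every measurable gene of each list (points, 1 row per list), with the median of the list as a black bar and the 1.5-fold limits dotted. The family members (red, median 0.25) overlap the collagen, processing and sugar chain genes (blue) and, for 5 of 9, the range of the fibroblast markers (median 0.03), and all lie below the 12 macrophage markers (median 1.03).

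Rescaling shifted the sizes and left the order of the measurable members as it was, apart from Dcn and Podn changing places without the loess trend. With the arrays centred on the medians of measurable genes, which takes 0.09 from each difference, the members ranged from -0.12 (Dcn) to 0.55 (Fmod), and 7 of 9 were above 0. With the loess trend removed they ranged from -0.033 (Podn) to 0.578 (Fmod), also with 7 of 9 above 0. No member passed 1.5-fold in either form. Bgn was at 0.45 and 0.55 in the centred and loess forms. Centring also changed the balance of all measurable genes past 1.5-fold, from 760 higher and 224 lower to 564 and 403. It took more than the 0.03 median difference of all measurable genes, which became -0.063.

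**Figure D4:**
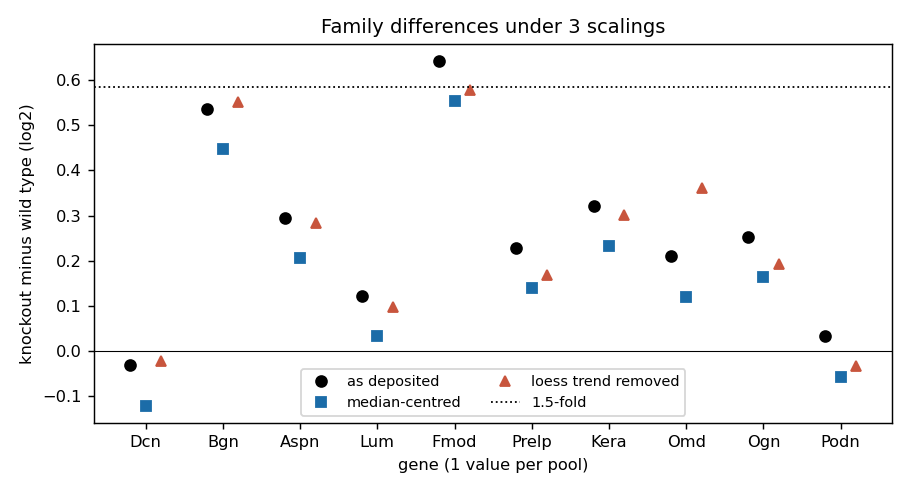
Difference between the pools (labelled knockout minus wild type, log2, vertical axis) of each family gene (horizontal axis) as deposited (circles), with centred arrays (squares) and with the loess trend removed (triangles), the 1.5-fold limit dotted. Only the deposited value of Fmod, 0.64, lies above the limit, and the symbols of Podn lie on both sides of 0.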

How the data were processed

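RNA from 1 wild type and 1 Mef2a knockout pool was hybridised to 1 array each. The authors deposited log2 values. The submitters' processing notes name RMA and Affymetrix Expression Console, and the version, settings and genome build were not given in the sources used here. No further normalization was applied.

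Of 35557 probe sets, 21789 had 1 gene symbol in the platform annotation, 1621 several and 12147 none. Only the first were used, with the highest-mean probe set for the 999 genes that had more than 1. All 10 members matched the RefSeq gene table of GRCm38.p6. The floor was 4.40, the median of all values. Differences, counts past fixed folds, percentiles and medians were computed in Python 3.11.15 with pandas 2.3.3, numpy 2.4.6 and statsmodels 0.14.6 (loess span 0.3), and the code was tested on simulated data. With 1 array per group there is no test, and the number of arrays limits the precision. The robust SD of the difference over measurable genes was 0.28. Since RMA equalised the distributions, a shift shared by most genes cannot be seen.

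The members and the gene lists were chosen with earlier results of these data known. Besides the members and their 8 relatives, up to 3 genes per list with the largest size of difference at the floor were named. Any other gene in the text was named after its value was seen. Of the 247 listed symbols, 238 were measured. Alternatives were other probe set rules, centring, a loess trend, other floors and other fold limits.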

Additional observations from a re-analysis of the deposited data

How the results depend on the processing

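Without replicates, a value was taken as moved when it shifted by more than the robust SD of 0.28, and a count when it changed by over 1.5 times. All alternatives were planned. Of 80 member differences under 8 alternatives, 78 kept their sign and moved by less than that. Most of these could not have moved, since each member has 1 probe set and a floor alters no difference. Only centring and the loess trend could change them. Centring takes 0.09 from every difference, so it could turn a sign but could not move any by 0.28. The count of 78 therefore says little about how stable the differences are. The exceptions among the 80 were those of Podn, which is also all of class V: -0.057 with centred arrays and -0.033 with the loess trend removed. The class I median ranged from 0.21 to 0.29 and the class II median from 0.19 to 0.27. The 1 member past 1.5-fold upward became 0 with centred arrays, 0 with the loess trend removed, 3 at a limit of 25% and 0 at 2-fold. The other probe set rules could not change it, and it was 1 under the other floors. No member was past the limit downward under any alternative. Of 160 other list medians, 150 kept their sign and moved by less than 0.28. Centring could not move these by 0.28 either. With centred arrays the fibroblast median was -0.054, the mural -0.041 and the Schwann -0.0031. The median of all measurable genes was then -0.063, below each of these. With the loess trend removed the fibroblast median was -0.012 and that of the other family genes 0.019. With no floor the protease median was 0.049 and the Schwann median -0.0645. With the floor at the 75th percentile, which tests fewer genes, the matrix proteoglycan median was 0.61 and the keratan sulfate median 0.62, and with the floor reached in both pools the former was 0.17. The cause of the other changes was not tested. No paired analysis was possible because each genotype has 1 array. Signal limits Omd, Epyc and Optc, below the floor in both pools.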

Other observations

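A total of 1961 of the 35557 probe sets held exactly the same value in both pools, 254 measurable genes among them, none of the 10 family members. Among the listed markers Mkx (4.35 in both pools), Matn1 (3.32), Matn3 (3.36) and, above the floor, Tek (6.31) were of this kind. The next 2 protein-coding genes after Bgn with measurable values on the X chromosome, Atp2b3 (5.70 in wild type and 5.11 in knockout-labelled RNA) and Pnck (5.63 and 5.27), were lower in the labelled knockout pool while Bgn was higher by 0.54. On the other side of Bgn, the adjacent Haus7 was higher (4.44 and 4.69), near the floor. Next to Fmod on chromosome 1, Btg2 read 6.09 and 6.18. On chromosome 10, Btg1 (0.35) and Eea1 (0.39) before Dcn and Atp2b1 (0.41) beyond Epyc had larger differences than Dcn or Lum. These genes were named after their values were seen.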
